A study of Mus musculus with 18 samples.

Results

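DNase I hypersensitive sites of MEL cells on day 5 of DMSO treatment were set against those of untreated cells on day 0. The data were 4 of the 18 samples of the series, which were the 2 DNase-seq libraries of each day. Regions of every library were read over 1 frame of 310860 consolidated sites. MEL is a mouse erythroleukemia line, grown here in RPMI-1640 medium with serum. Day 0 cells had no DMSO, while day 5 cells had spent 5 days in medium with 2% DMSO, a solvent that starts hemoglobin synthesis in this line. The labels call the 2 libraries of each day biological replicates and report that most treated cells stained for hemoglobin. The line is transformed, and the treated culture was not sorted, so fewer open copies in all cells and open copies in fewer cells cannot be told apart. The 2 days differ in DMSO and in days of culture together, and the parts of both in any difference cannot be told apart.

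DNase I cuts DNA where it is not wrapped in nucleosomes, and such hypersensitive stretches mark promoters, enhancers, insulators and other places where proteins bind. When red cell precursors mature, chromatin is compacted, many regulatory sites of the precursor are shut, and the sites that serve globin, heme and membrane genes stay in use. PU.1, an ETS-family transcription factor of myeloid and lymphoid cells, is produced in excess in MEL cells and holds back their erythroid maturation. It therefore offered a second set of positions, from another assay, at which to read the hypersensitive sites.

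RNA of this line was used to check the label. All 9 erythroid markers reached at least 1 FPKM in at least 2 libraries, and their summed levels were 1740 and 1187 FPKM in untreated cells against 29939 and 25275 FPKM in treated ones. Of the other lists, 0 of 4 lymphoid, 2 of 6 myeloid, 2 of 4 megakaryocyte, 1 of 4 mast cell and 1 of 3 stromal or epithelial markers reached that level. The myeloid sum, 56.6 and 102 FPKM before treatment against 3 and 5.64 FPKM after it, was mostly Sfpi1, the gene of PU.1 itself. The megakaryocyte sum was 56.8 and 15.7 against 132 and 108 FPKM, with Itga2b, an integrin also made by early blood cells, at 11.4 ± 5.71 and 98.3 ± 7.72 FPKM (SD, n = 2 libraries a day). The stromal or epithelial sum was 151 and 142 against 9.6 and 6.33 FPKM and was mostly Vim, an intermediate filament. The mast cell sum was 10.2 and 6.47 against 0.382 and 0.376 FPKM. The part of these shifts in the DNase results was not tested. Csf1r, Lyz2 and Mpo, markers of macrophages and granulocytes, were listed at 0 in all 4 RNA libraries. On the same myeloid list Itgam lay near 0. Cd68, also a macrophage marker, had 1.22 and 0.766 FPKM on day 0 and 0.628 and 2.09 FPKM on day 5.

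The first comparison asked how many regions each list held. Day 5 lists were longer, and the added regions were weak and narrow. The day 0 lists held 190924 and 252611 regions, and the day 5 lists held 617606 and 518066. The day 5 mean was 2.56 times that of day 0, and the lists of the 2 days did not overlap in length. An exact two-sided permutation test of 2 libraries against 2 gave p = 0.33, which is the smallest p that this design allows, so no single value per library could pass a threshold. The score of a region is the authors' number. The sources used here do not define it, and every list began at a score of 2.

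Above a moderate score the order of the days turned. Regions with a score of at least 4 numbered 111702 and 131518 on day 0 and 179453 and 148279 on day 5. With a score of at least 10 they numbered 70618 and 70379 on day 0 against 45756 and 49959 on day 5, a ratio of 0.679. With a score of at least 100 they numbered 23527 and 20804 against 7800 and 11504, a ratio of 0.435. The greater length of the day 5 lists was thus a property of regions with low scores. At the very top the lists came close again, with 18 and 11 regions of at least 1000 on day 0 and 10 and 10 on day 5. How deeply each library was sequenced is unknown, as no read totals come with the lists, and the part of depth in list length was not tested.

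**Figure D1:**
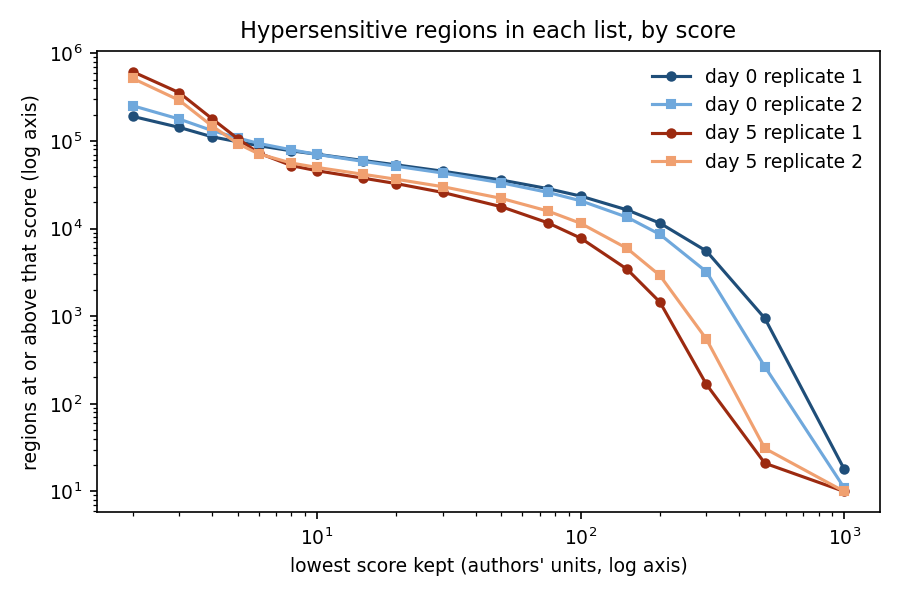
Number of regions in each library's list (vertical, log axis) at or above a score in the authors' units (horizontal, log axis), 1 line per library. Both day 5 lines start above both day 0 lines at the lowest score, and lie below them from a score of 10 to a score of 500.

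Day 5 regions were narrower in the full lists. The median region spanned 355 bases in both day 0 lists and 260 and 243 bases in the day 5 lists (exact permutation p = 0.33, n = 2 libraries a day). Among regions with a score of at least 10 the medians were 733 and 966 bases on day 0 and 894 and 835 bases on day 5, so that the day 5 values lay between those of day 0. At scores of at least 100 the day 5 medians were again lower, 1753.5 and 1669.5 bases against 1791 and 2332. At the sites found in all 4 lists they were 605 and 575 bases against 618 and 891. The lists of 1 day also matched each other only in part. On day 0, 74.7% of the regions of replicate 1 and 52.2% of those of replicate 2 overlapped a region of the other replicate by at least 1 base. On day 5 the shares were 40.7% and 48.6%.

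Presence in the lists was then read site by site. The consolidated sites were identical to the merge of the regions that both replicates of a day shared, 147639 for day 0 and 263887 for day 5. A site found in all 4 lists is called common, a site in both day 0 lists and in no day 5 list closed, and a site in both day 5 lists and in no day 0 list opened. These names describe lists and not the state of the chromatin. Common sites numbered 88265, or 28.4% of all sites. Closed sites numbered 27672 (8.9%) and opened sites 125738 (40.4%), and the other 69185 sites (22.3%) were found in both lists of a day and in 1 list of the other.

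Common sites were the broad and strong ones. Their median width was 616 bases, against 247 bases for closed and 144 bases for opened sites. The frame favours this order, as a common site can merge regions of both days and a closed or opened site cannot. A wide site also meets the rule of 1 base more easily. The part of the frame in the width gap was not tested. Opened sites had median scores of 3.37 and 3.17 in the day 5 libraries, against 3.94 and 5.26 for closed sites on day 0. Both scores were at least 10 at 97 opened sites (0.0771%) and at 2000 closed sites (7.23%). A score of at least 10 in both day 0 libraries was reached by 66.2% of the common sites, and in both day 5 libraries by 47.2% of them. Nearly all opened sites thus had a low score in at least 1 of the day 5 libraries.

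Distances to the other day's regions were also read, and since the day 5 lists were longer, those of closed and opened sites are not on one footing. A closed site had the nearest day 5 region at a median distance of 398 bases, and 15.1% of closed sites had one within 100 bases. An opened site had the nearest day 0 region at a median distance of 1981 bases, and 66.1% of opened sites had none within 1000 bases. Some sites were only slivers. Sites under 20 bases numbered 7289 among the opened, 720 among the closed and 0 among the common, an order that the frame also favours.

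Of 146874 sites found in both day 0 lists, 119202 were found in at least 1 day 5 list (81.2%), and 88265 were found in both (60.1%). Of 252251 sites found in both day 5 lists, 126513 were found in at least 1 day 0 list (50.2%), and 88265 in both (35.0%). The lower share among the day 5 sites turned when each list was limited to its 190924 strongest regions. Then 66.0% of day 0 sites were found on day 5 and 79.2% of day 5 sites were found on day 0. With a score of at least 4 required in every list, the shares were 75.7% and 77.8%. The order of the 2 shares thus changed with both limits, each of which removes weak regions.

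Strong sites persisted in both directions. The sites of each day were split by mean rank in that day's libraries into 10 groups of equal size. In the weakest group of day 0 sites, with a median mean score of 2.8, 61.8% were found on day 5. The share was 76.1% in group 5 and 99.9% in the strongest, where the median mean score was 241. Among day 5 sites it was 20.6% in the weakest group, 35.9% in group 5 and 100% in the strongest. It rose at every step from the weakest group to the strongest for both days.

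The rule named the 5 closed sites whose lower day 0 rank was highest, and these are the strong end of the class. Closed sites as a whole had median day 0 scores of 3.94 and 5.26, and 15.1% lay within 100 bases of a day 5 region. The first, at chr3:108523838-108523840 in mm9, spanned 3 bases, had scores of 219 and 309 on day 0 and lay 43 bases from a day 5 region. A site of 160 bases at chr19:44549755-44549914 had scores of 80.2 and 547 and lay 21 bases from a day 5 region, and one of 486 bases at chr1:122020685-122021170 had 70.6 and 353 and lay 39 bases away. Those 3 sites thus lay directly beside a day 5 region. The other 2 stood farther from one. The site at chr5:138700930-138701286 had scores of 213 and 271 at a distance of 354 bases, and the site at chr11:116057926-116058446 had 135 and 248 at 571 bases. The site on chromosome 11 lay on a day 0 contact vertex, a region for which a long-range contact was listed, and had none on day 5.

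The 5 opened sites named by the same rule spanned 17 to 260 bases, and the 5 closed ones 3 to 521. At chr5:15128084-15128182 the day 5 scores were 63.8 and 88.7, in 99 bases that lay 221 bases from a day 0 region. At chr14:4410201-4410460 they were 57.1 and 44, with a day 0 region 971 bases away. The other 3 stood far from any day 0 region. A site of 17 bases at chrX:84874320-84874336 had scores of 48.2 and 49.5 and lay 21888 bases away, a site of 37 bases at chr13:66268429-66268465 had 45.5 and 45.3 at 104403 bases, and a site of 151 bases at chr3:80874460-80874610 had 52.5 and 41.9 at 30825 bases. No PU.1 peak and no footprint of either day was listed at any of these 10 closed and opened sites.

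To compare strength without the difference in scale between lists, the common sites were ranked within each library by their highest score. A percentile of 100 is the strongest common site of that library, and changes are given in percentile points, day 5 minus day 0. Ranking removes any change shared by all sites. In the raw scores such a change was large, with medians at the common sites of 31.8 and 34.2 on day 0 and 9.74 and 12 on day 5, and a median shift of -1.01 on the log2 scale.

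The order of the common sites was broadly the same on both days. Sites missing from any list are left out of it. Of the 10 groups of day 0 sites by strength, 26.5% of the weakest and 99.9% of the strongest were common. A weak day 0 site thus entered only where both day 5 lists still held it. Spearman's rank correlation over the 88265 sites was 0.864 between the day 0 libraries and 0.904 between the day 5 libraries. Between days it ranged from 0.781 to 0.831 over the 4 pairs. These are descriptions across sites, which are not independent replicates. The median change was 1.25 points, and the quartiles of the changes were -7.07 and 8.14. Both day 5 libraries lay above both day 0 libraries at 31252 sites (35.4%) and below both at 20693 sites (23.4%).

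No single site passed the test. limma on the normal scores of the ranks gave 0 sites with a Benjamini-Hochberg adjusted p under 0.05 (0.0% of 88265), with 0.12 as the lowest adjusted p. An unadjusted p under 0.05 was reached by 20741 sites (23.5%). With 1 library of a day left out, the other is assumed to vary like the pair of the other day. Leaving out day 0 replicate 1 gave 7729 sites and leaving out day 0 replicate 2 gave 9518, while leaving out either day 5 library gave 0. Without ranking, limma on the log2 scores called 40187 sites, of which 39646 were lower on day 5, a direction that the shift of all sites described above already carries.

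**Figure D2:**
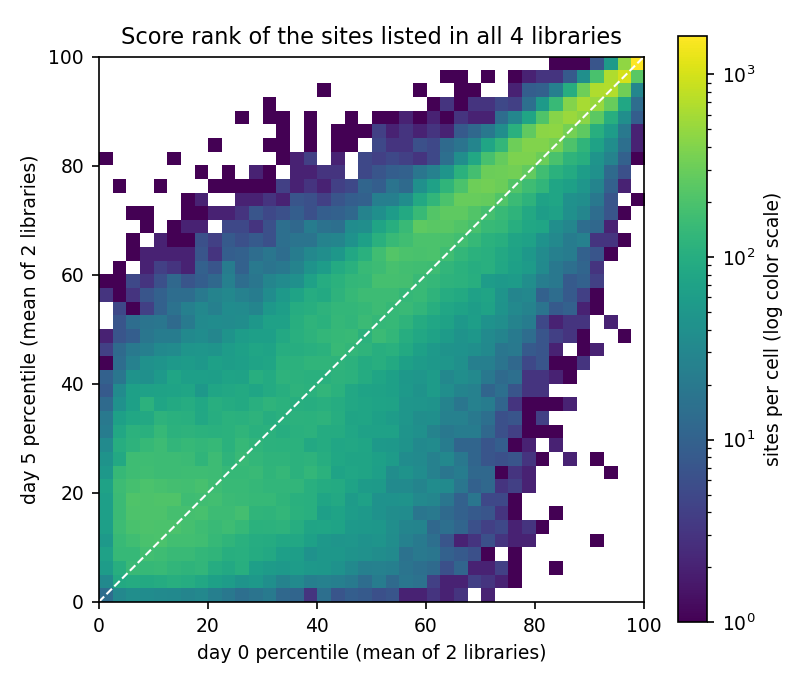
Percentile of each of the 88265 common sites on day 0 (horizontal) and day 5 (vertical), each the mean of 2 libraries, with color giving the number of sites per cell on a log scale and the dashed line marking equal rank. Sites gather along the line at the top and spread widely below the middle percentiles.

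Since none passed, the sites named next are the largest moves among those whose days did not overlap, and were chosen after their values were seen. The largest upward difference was at a site of 1276 bases at chr15:35130388-35131663. Its scores were 2.34 and 2.49 on day 0 and 41.2 and 86.8 on day 5, or percentiles of 2.55 and 2.15 against 76.7 and 84.5 (limma adjusted p = 0.12). It had a footprint, a short protected stretch inside a hypersensitive site, on day 5 and none on day 0, and a PU.1 peak in day 5 replicate 2 but not in the merged list. At chr5:112791181-112792356 the scores were 2.61 and 2.95 against 33.9 and 60.4, again with a footprint on day 5 alone. The site at chr2:181197476-181198422, with 7.66 and 3.23 against 47.8 and 70.6, had the same footprint pattern. The other 2 had no footprint on either day. They were at chr12:112561542-112562197, with 6.06 and 2.56 against 37.7 and 51, and at chr5:22754015-22754618, where the day 5 libraries stood apart from each other at 9.91 and 122.

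The largest downward difference was at chr5:31902734-31904109. Its scores were 239 and 232 on day 0 and 3.87 and 2.75 on day 5, which took it from percentiles of 89.7 and 91.6 to 17.5 and 6.01 (limma adjusted p = 0.12). It held a footprint and a contact vertex on day 0 and neither on day 5. The site at chr3:96437090-96438495 had 95.7 and 302 against 3.33 and 2.33, and held a PU.1 peak, a footprint and a contact vertex on day 0 and none of these on day 5. Scores at chr1:37482872-37484550 were 28.6 and 284 against 2.07 and 2.17, with a merged PU.1 peak on day 0, and on day 5 a peak in replicate 2 but none in the merged list. The remaining 2, at chr12:88107338-88108259 with 59.2 and 231 against 2.25 and 2.82 and at chr3:58922096-58922539 with 336 and 229 against 5.32 and 3.58, had none of these marks. At 3 of these 5 sites, those at chr3:96437090-96438495, chr12:88107338-88108259 and chr1:37482872-37484550, the day 0 libraries also differed widely from each other.

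The 5 strongest sites stood at the top of all 4 libraries. The first, at chr2:98506182-98508137, scored 5522 and 7751 before treatment and 8198 and 8298 after it. The third of them in rank, at chr12:3109085-3110764, scored 2948 and 4231 against 4009 and 4156. The second was at chr6:103598932-103599357, and the other 2 lay close to the first, at chr2:98504890-98505520 and chr2:98501867-98503520. All 5 had footprints on both days. No PU.1 peak was listed at them in any merged or replicate list. The merged PU.1 lists carry the label NOBLKlist, which reads as removal of blacklisted regions, a set left out of peak lists. Whether these 5 sites lie in such regions was not tested, so the absence of a PU.1 peak there cannot be read as absence of PU.1. At none of these 5 sites did both day 5 scores lie below both day 0 scores.

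Sites with a PU.1 peak on day 0 ranked lower in both day 5 libraries than in both day 0 libraries. A merged PU.1 peak of day 0 lay on 8483 common sites, or 9.61%, and these sites were wide, with a median of 1575 bases. On day 0 they averaged percentiles of 72.5 and 71.3, and on day 5 percentiles of 64.2 and 62, a difference of -8.76 points. Common sites without such a peak averaged 47.6 and 47.7 before treatment against 48.5 and 48.7 after it. The lead of PU.1 sites over the others went from 24.2 ± 0.997 points to 14.5 ± 1.71 (SD, n = 2 libraries a day), and the days did not overlap (exact permutation p = 0.33, the smallest possible).

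Counts of sites, taken from the same percentiles, restate this difference. Both day 5 libraries were below both day 0 libraries at 4501 of the 8483 PU.1 sites (53.1%), against 23.4% of all common sites and 20.3% of those without a day 0 peak. They were above at 1538 (18.1%), against 35.4% of all. PU.1 binding itself was listed at fewer places on day 5, with 14064 merged peaks on day 0 and 3530 on day 5. The RNA of its gene Sfpi1 stood at 55.4 and 101 FPKM before treatment against 2.37 and 3.55 FPKM after it. Both are given beside the ranks as measured values, and their part in the result was not tested.

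The lower rank was seen with and without a PU.1 peak on day 5. Where a peak was listed on both days (2616 sites) the mean percentiles were 77.7 and 76.2 on day 0 and 70.3 and 67.8 on day 5, a difference of -7.89. Where it was listed on day 0 alone (5867 sites) they were 70.2 and 69.1 against 61.5 and 59.5, a difference of -9.15. The gap between these 2 sets was 7.28 ± 0.301 points on day 0 and 8.54 ± 0.373 on day 5 (SD, n = 2), larger by 1.26 points, with no overlap between days. The 147 sites with a peak on day 5 alone stood at 81.7 and 80.6 on day 0, just under 82.1 and 82.5 on day 5.

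The difference was larger at stronger peaks. In 4 groups of equal size by PU.1 peak score, the mean difference was -5.74 points in the weakest, then -7.67, then -9.2, and -12.4 in the strongest. Since PU.1 sites are stronger than most, they were also compared with sites of like strength, in 5 equal groups of the mean percentile over all 4 libraries. From the weakest group to the strongest, the mean difference at PU.1 sites was -9.49, -20.7, -17.8, -8.65 and -1.28 points. At the sites without a day 0 peak it was 2.4, -2.12, 0.656, 2.44 and 1.41 points in the same groups. The difference at PU.1 sites was below that of their peers in each of the 5 groups. PU.1 sites were also wider than their peers in each group, with medians of 899 against 520 bases in the middle one. The part of width in the difference was not tested. The groups were cut on both days' ranks, which limits how far a site of the weakest or strongest group can move.

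**Figure D3:**
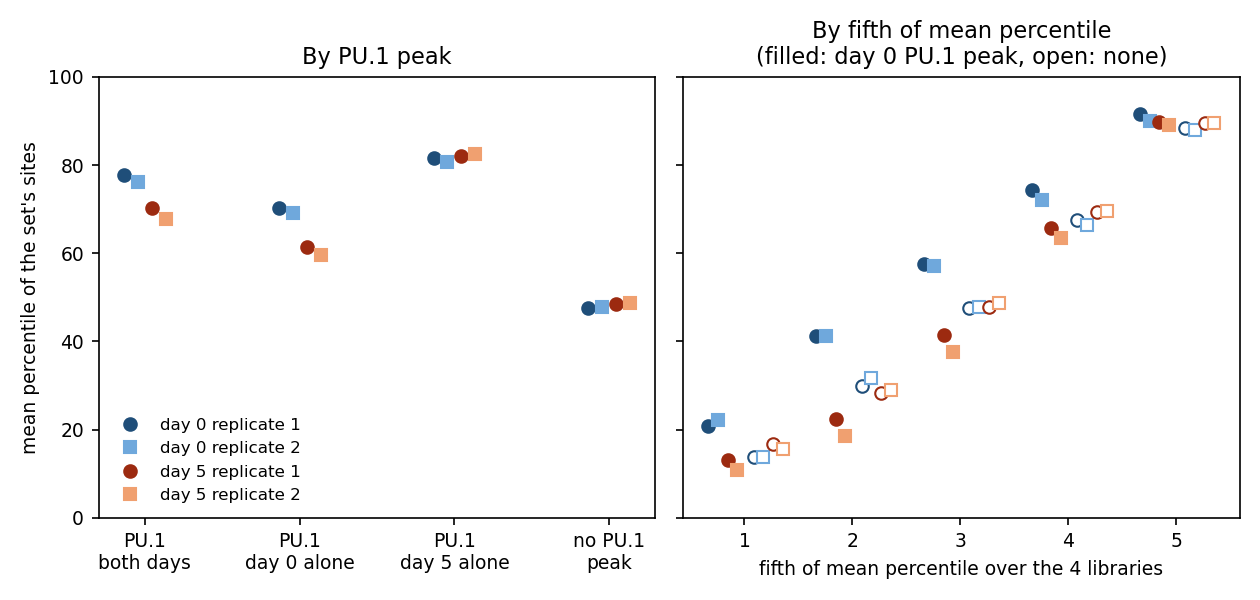
Mean percentile of common sites in each of the 4 libraries (points, 1 per library), by the days on which a merged PU.1 peak was listed (left) and by 5 equal groups of mean percentile over the libraries (right, filled for sites with a day 0 PU.1 peak and open for sites without). Day 5 points lie below day 0 points in both sets with a day 0 peak, and in each of the 5 groups for the filled points.

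PU.1 peaks were listed at few opened sites. A day 0 peak lay on 4.39% of closed and 0.0382% of opened sites, against 9.61% of common ones, 1.9% of those found in 3 lists and 3.56% of all consolidated sites. A day 5 peak lay on 0.585% of closed, 0.00318% of opened and 3.13% of common sites, and on 0.992% of all. Opened sites are by definition in no day 0 list. They were also the narrowest, with a median of 144 bases against 247 for closed and 616 for common sites. The part of width and score in these shares was not tested. Of the 11060 consolidated sites with a day 0 peak, 8483 were common, 1216 closed, 48 opened and 1313 found in 3 lists.

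Footprints come from the same DNase libraries and so are no independent measure. They sat almost wholly on common sites, which held 97.4% of the 155765 day 0 footprints and 98.5% of the 158217 day 5 footprints. At least 1 footprint was present at 57.2% of common sites on day 0 and at 53.3% on day 5. Sites with a footprint on day 0 alone (6944) had mean percentiles of 55.5 and 52.8 on day 0 and 37.3 and 36.4 on day 5. Sites with one on day 5 alone (3490) had 34.1 and 31.6 against 48 and 49.6. Footprint calls and rank moved together at these sites, while the 43555 sites with footprints on both days averaged 70.7 and 70.3 against 71.7 and 72.5.

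Contact vertices were 1 kb regions that the authors built from DNase sites with polymerase II and cohesin peaks, and those with a contact in the polymerase II ChIA-PET of a day were used. They were strong sites throughout, though their high ranks are no independent result, as vertices were built from DNase sites. The 3216 common sites on a vertex with a contact on both days averaged percentiles of 86.6 and 85.8 on day 0 and 86.1 and 86.1 on day 5. Sites with a contact on day 0 alone (2141) averaged 77.6 and 77.7 against 75.7 and 75.5, and those with one on day 5 alone (2292) averaged 79.2 and 78.6 against 79.8 and 79.9. The lead of the day 5 set over the day 0 set was 1.26 ± 0.517 points on day 0 and 4.27 ± 0.224 on day 5 (SD, n = 2 libraries a day). The days did not overlap (exact permutation p = 0.33), and the shift was 3.01 points.

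Opened shares differed between chromosomes. Opened sites made up 35.2% (chromosome 4) to 49.3% (chromosome 15) of the sites of a chromosome, leaving out Y. Chromosomes 15, 9, 5 and 1 had the highest shares, from 43.5% to 49.3%, and the other 16 ranged from 35.2% to 42.2%. The same 4 chromosomes had low closed shares, from 6.12% to 8.52%, in a range over all 20 of 6.12% to 11.5%. They were not alone in this, as chromosomes 19 (6.83%) and 3 (8.08%) also lay between those values. The density of sites also varied, from 56.7 sites per megabase on X to 249 on chromosome 19, and its part in these shares was not tested.

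The median rank change of common sites ran from 0.539 points on chromosome 17 to 2.66 on chromosome 19. The Y chromosome stood apart with 70 sites, of which 47 were common. Their median change was 28 points, and 80.9% of them were higher with no overlap between days, against 35.4% of all common sites. Only 7.14% of its sites were opened.

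**Figure D4:**
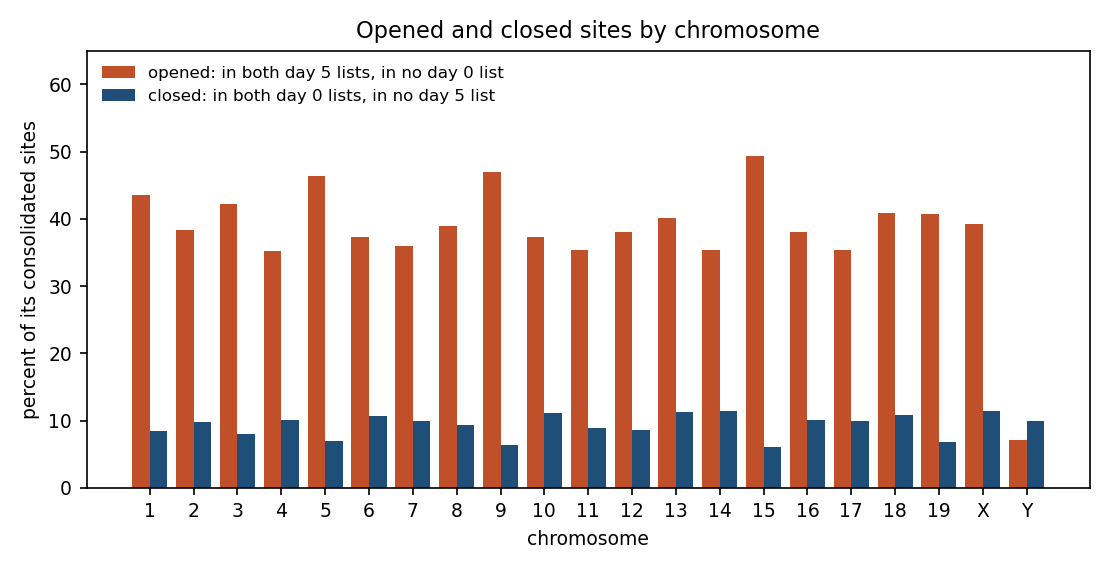
Share of each chromosome's consolidated sites that were opened (in both day 5 lists and no day 0 list) or closed (in both day 0 lists and no day 5 list), in percent, 1 pair of bars per chromosome. Opened shares are highest on chromosomes 15, 9, 5 and 1, and Y, with 70 sites, is the only chromosome with more closed than opened sites.

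Averaging neighbouring sites gave values with less scatter. Windows of 0.25 Mb with at least 10 common sites were tested by limma on their mean normal score, a test added after the single sites had been seen. It called 363 of 3341 windows (10.9%), 160 higher (4.79%) and 203 lower on day 5 (6.08%). The count was 568 without day 0 replicate 1 and 422 without day 0 replicate 2. It was 100 without either day 5 library. In such a fit the lone library is assumed to vary like the pair of the other day. Of the 160 higher windows, 67 were still called without day 5 replicate 1 and 76 without day 5 replicate 2. Of the 203 lower windows, 30 and 22 were. All 5 named windows of each direction kept the sign of their change in each of these 4 fits. That outcome was all but fixed and adds no support. The windows were named for large changes, and in each, both day 5 mean percentiles lay on the same side of both day 0 values.

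Higher and lower windows differed in the sites they held. In higher windows 2.87% of the common sites had a day 0 PU.1 peak, in lower windows 15.2%, and over all windows 10.1%. Day 0 footprints, which come from the same DNase libraries, were present at 23.2%, 62.4% and 55.2% of their sites. Higher windows were weak on day 0, with a median mean percentile of 29.3 against 43.6 on day 5, and lower windows went from 56.8 to 46.7. These ranks are the values by which the windows were called. Day 0 PU.1 peaks lay on 297 of the 17653 common sites in the weakest of 5 groups by mean percentile. In the strongest group they lay on 3366 of 17653. The part of site strength in the PU.1 and footprint shares was not tested. Closed sites made up 3.18% of all sites in higher and 14.4% in lower windows, against 9.46% in all, and opened sites 41.7% and 29.7%, against 33.4%. Contact vertices lay at 2.01% of the common sites of higher and 8.53% of those of lower windows, against 9.78% in all.

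The largest rise in normal score was at chr12:114500001-114750000, which in percentile points (31.7) rose less than 3 of the 4 windows named after it. Its 20 common sites had mean percentiles of 10.9 and 7.62 on day 0 and 44 and 38 on day 5 (limma adjusted p = 3.21e-05), and 19 of them were higher with no overlap. The windows at chr12:116750001-117000000 and chr12:116250001-116500000 rose in like manner, with 16 and 17.3 against 54.4 and 52.2, and 16.7 and 15.7 against 59.7 and 53.4. The last 2 of these were at chr19:50500001-50750000, with 6.98 and 8.2 against 34 and 34.6, and at chrX:121250001-121500000, with 27.8 and 30.9 against 67.4 and 61.5. These 5 windows had 80 common sites, of which 76 were higher with no overlap between days, a count that follows from how the windows were chosen. A day 0 PU.1 peak lay on 1 of the 80.

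The falls were smaller. At chr11:11250001-11500000 the 16 common sites had mean percentiles of 69.9 and 66.3 on day 0 and 49.7 and 48.4 on day 5 (limma adjusted p = 0.000388), 12 were lower with no overlap, and 3 had a day 0 PU.1 peak. The windows at chr18:33750001-34000000, chr18:84250001-84500000 and chr18:74250001-74500000 fell by 15.3, 14.9 and 14.8 points. The largest fall on the scale of the test was at chr1:130000001-130250000, with 37.5 and 48 on day 0 and 24.8 and 28.5 on day 5 (limma adjusted p = 0.00624). Its change in normal score was -0.69, and it was -0.63 without day 5 replicate 1 (limma adjusted p = 0.107) and -0.76 without day 5 replicate 2 (0.0525). At chr18:84250001-84500000 the change was -0.6, and it was -0.57 without day 5 replicate 2 (limma adjusted p = 0.0512).

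**Figure D5:**
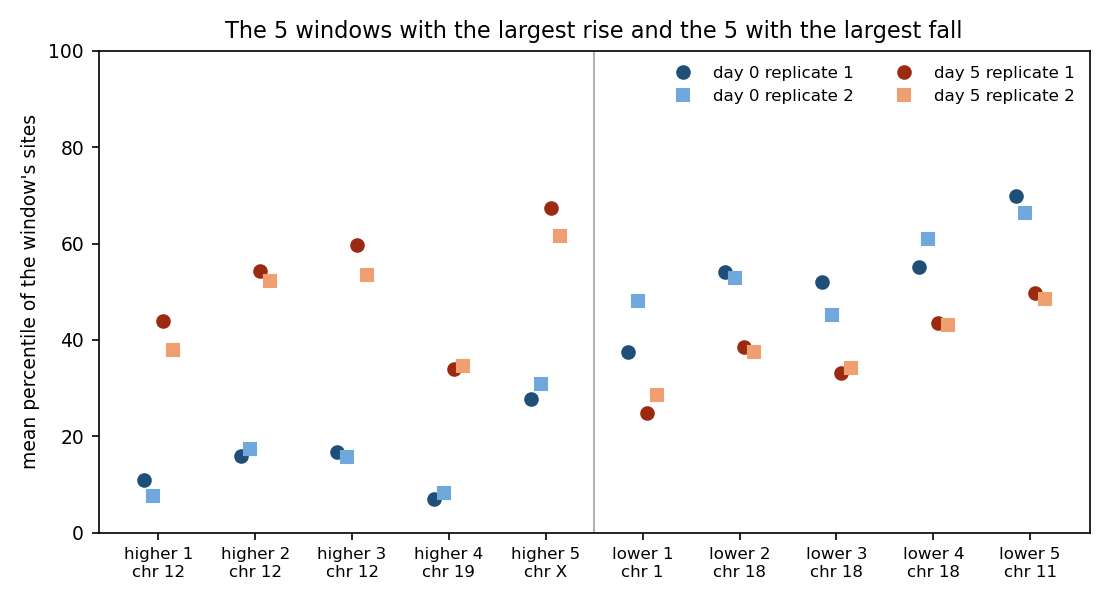
Mean percentile of the common sites in each of the 4 libraries (points) for the 5 windows of 0.25 Mb with the largest called rise and the 5 with the largest called fall, ordered by the change in normal score. Day 5 points lie apart from day 0 points in all 10 windows, and the rises are larger than the falls.

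Some called windows adjoined others of the same direction. Of the 160 higher windows 58 did (36.2%), and of the 203 lower windows 14 (6.9%), and no share to be met without clustering was computed. The longest run was 8 windows at chr9:18250001-20250000, where 514 common sites averaged 14.4 and 13.2 on day 0 and 33.7 and 29.3 on day 5, and 383 of them were higher with no overlap. This stretch was dense in regions already on day 0, with 508 and 516 regions per megabase, and 560 and 535 on day 5. The next, of 7 windows, lay nearby at chr9:22500001-24250000 and went from 15.3 and 14.6 to 28.7 and 26. A run of 5 windows at chr11:104500001-105750000 went from 30.6 and 27 to 42.5 and 40.5, and there the lists held 185 and 280 regions per megabase on day 0 against 599 and 620 on day 5. In all 3 stretches the median region score was higher on day 5, the opposite of the lists as a whole: on the first it was 3.44 and 3.76 against 4.72 and 4.48. The stretches were picked for higher day 5 ranks of the same scores. These medians and the count of 383 sites thus follow largely from that choice and add no support.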

How the data were processed

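DNase-seq was made from 2 cultures a day. Bowtie, bedtools and the build mm9 are named for it in the submitters' processing notes, and the series text calls the regions hotspots. The caller's version and cutoffs are not given in the sources used here. For each replicate, the authors deposited 1 list with a score per region. Footprints were deposited as 1 list per day, not per replicate, with a score of their own. The authors' lists of shared regions per day carry the score of replicate 1. Of these and of the list over both days, only positions were used. PU.1 peaks came from Bowtie 1.0.0 and MACS2 2.0.10, per the submitters' processing notes. The deposited replicate lists give 2 values per peak, a ratio over input and a −log10 p, and the deposited merged lists an irreproducible discovery rate (a q-value) and the score by which PU.1 sites were grouped. RNA levels are the authors' FPKM per gene.

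A site was present where a list overlapped it by at least 1 base (bedtools 2.31.1), and took that list's highest score. Common sites were ranked per library and tested by limma 3.58.1 in R 4.3.3 (day as the term, eBayes with trend, two-sided, Benjamini-Hochberg adjusted p under 0.05), after a check on simulated data. Named sites were the 5 strongest, the 5 largest rises and falls, and the 5 closed and 5 opened with the highest lower percentile. Windows were named as the 5 called rises and 5 called falls with the largest change in normal score. Single values per library were tested by exact permutation. Groups and replicate numbers came from the titles. The lists give no read counts, so depth is unknown and no counting interval is given. Gene names at sites are left out, as no mm9 annotation was used here. The sites and lists were chosen with earlier results of these data known.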

Additional observations from a re-analysis of the deposited data

How the results depend on the processing

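The number of sites called went from 0 to 40187 with log2 scores and no ranking, to 31031 when sites absent from a list took its lowest score (sites in at least 2 libraries) and to 3829 with merged replicate lists as the frame. Leaving out 1 library gave 0 to 9518. Quantile normalization, percentiles, the mean score in a site, a mean score of at least 4 and an overlap of at least 50% gave 0, as did a replicate block (0 called, lowest limma adjusted p 0.0898). Replicate numbers are shared by the days, but replicate differences of the days correlated by 0.0721 over sites, in 2 pairs, so the number is not treated as a pairing. The windows called went from 363 to 180 at 0.1 Mb and 161 at 1 Mb, to 445 with the replicate block and 290 with at least 5 sites, and to 100 to 568 without 1 library. The windows and their settings, the PU.1 rank difference, the scores of at least 10 and 100, and the width limit were chosen after seeing the data.

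The share of day 0 sites found on day 5 (81.2%) was 77.4% with 50% overlap, 66.0% with equally long lists, 75.7% with scores of at least 4, 86.5% in the merged frame, 60.1% in both replicates, 59.3% between the authors' intersected lists, 83.2% at sites of at least 100 bases and 70.3% to 84.1% without 1 library. The share of day 5 sites found on day 0 (50.2%) was 79.2% with equally long lists, 77.8% with scores of at least 4, 35.0% in both replicates, 37.5% between intersected lists, 59.1% at sites of at least 100 bases and 39.4% to 53.1% without 1 library. The ratio of regions per library, day 5 over day 0, reversed from 2.56 to 0.679 at scores of at least 10 and 0.435 at 100, and that of median width from 0.708 to 1.02 at scores of at least 10. The range of chromosome medians, 2.13 points, was 1.92 to 2.44 without 1 library and 0.25 on the log2 scale.

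Day 0 PU.1 peaks lay on 4.39% of closed sites, or 4.15% with 50% overlap, 8.27% with scores of at least 4, 4.8% at sites of at least 100 bases and 3.97% to 4.51% without 1 library. The shares for common sites (9.61%) were 9.82% and 12.2% under the first 2 settings and 7.41% to 8.86% without 1 library, and for opened sites (0.0382%) 0.0212%, 0.0638% and 0.0382% to 0.074%. Day 0 footprints lay on 4.29% of closed sites, or 14.2% with scores of at least 4, 5.04% at sites of at least 100 bases and 4.29% to 6.14% without 1 library. For common sites (57.2%) the values were 59.7% with 50% overlap, 78.5% with scores of at least 4 and 43.9% to 50.8% without 1 library, and for opened sites (0.00875%) 0.0585% with scores of at least 4 and 0.00875% to 0.105%. The lead of PU.1 sites changed by -9.7 points, and by -8.49 to -11.4 under the 7 settings run. The causes of these shifts were not tested. RNA at sites was not run, for want of mm9 gene positions. Depth is unknown, which limits what absence of a weak site from a list can show.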
